A study of Mus musculus with 14 samples.

Results

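The 4 mouse tissue inhibitors of metalloproteinases, Timp1, Timp2, Timp3 and Timp4, were followed through 14 RNA libraries of sorted hippocampal cells. They were taken by symbol: the Ensembl identifier of each gene in the deposited table, without its version, was looked up in GENCODE M21. All 4 genes were found among the 43346 in the table, and all 4 were among the 18676 genes that passed the filter on low counts. The study, whose title names Timp3 and Rrm2, set seizures and chemogenetic silencing against controls in cells that the submitters call adult-born granule cells (abGCs). Approximately 800 to 1000 live GFP-positive cells went into each library, and polyadenylated RNA was turned into cDNA with the SMART-Seq v4 kit without an extraction step.

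All 4 groups came from hippocampus of wild-type C57BL/6 mice at day 14, and all received CNO (clozapine N-oxide), the ligand of the engineered receptor. DREADD Pilo (3 libraries) is labelled as seizures and silenced: it carried the DREADD, an engineered receptor that library names give as hM4Di, a Gi-coupled form, and received pilocarpine. CAG-GFP Pilo (4 libraries) is labelled as seizures and carried a GFP construct without the DREADD. DREADD Sham (4 libraries) carried the DREADD without seizures. CAG-GFP Sham (3 libraries) carried GFP without seizures and is the control. Status epilepticus was induced with pilocarpine at 300 mg/kg, a muscarinic agonist, after scopolamine methyl nitrate and terbutaline, and was ended with diazepam. The age of the mice, the event from which the day is counted and whether any library pooled animals were not given in the sources used here. Nothing states that the libraries of a group came from separate animals, so p-values here measure the spread between libraries, which may be technical.

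TIMPs are small secreted proteins that block matrix metalloproteinases by inserting their amino-terminal end into the catalytic cleft, where the first cysteine binds the zinc. TIMP3 is held in the extracellular matrix and also blocks ADAM17 and the aggrecanases. TIMP2 takes part in the activation of pro-MMP2 at the cell surface together with MMP14. In brain, Timp1 is known as an inducible member, and Timp4 is known for its expression in brain and heart. Nested inside synapsin genes on the opposite strand, 3 of the 4 mouse genes keep an arrangement also found in other animals.

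The start of each coding sequence is printed to show the feature the members share, the Cys-X-Cys triplet that begins the mature inhibitor. The bases are from GENCODE M21 transcripts on GRCm38, 5′ to 3′ on the coding strand from the start codon. Capitals mark the first stretch with the form TG, then T or C, then any codon, then TG and T or C, read in frame.
Timp1: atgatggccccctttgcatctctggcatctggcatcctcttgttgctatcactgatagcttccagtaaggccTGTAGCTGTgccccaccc
Timp2: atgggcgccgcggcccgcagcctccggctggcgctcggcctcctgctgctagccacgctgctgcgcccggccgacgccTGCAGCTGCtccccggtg
Timp3: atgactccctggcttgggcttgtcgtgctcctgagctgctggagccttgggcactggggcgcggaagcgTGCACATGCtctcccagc
Timp4: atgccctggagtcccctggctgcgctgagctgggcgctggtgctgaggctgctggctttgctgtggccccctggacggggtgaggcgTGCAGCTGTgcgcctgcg
The triplet began at codon 25 in Timp1, 27 in Timp2, 24 in Timp3 and 30 in Timp4. The middle codon read AGC in Timp1, Timp2 and Timp4 and ACA in Timp3. Full coding sequences of the pairs were 57.8% to 65.2% identical, and no stretch of 31 bases was shared between any pair, so the 4 genes are not near-identical copies.

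The genes differ in their surroundings, which bears on the counts. Timp1 (ENSMUSG00000001131.7) lies at X:20870166-20874735 on the plus strand, inside Syn1, with 0 exon bases in common. Timp2 (ENSMUSG00000017466.5) lies at 11:118301069-118355740 on the minus strand and is the member outside any synapsin gene. Its span overlaps that of Cep295nl, also with 0 exon bases in common. Timp4 (ENSMUSG00000030317.6) lies at 6:115241892-115252205 on the minus strand, inside Syn2, with 90 exon bases (1.53% of its exons) in common. Timp3 (ENSMUSG00000020044.9) lies at 10:86300372-86349506 on the plus strand, inside Syn3. The last 1733 bases of its last exon, 10:86347774-86349506, are also annotated as exon of a Syn3 transcript, and they make up 21.3% of the exon bases of Timp3.

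Timp3 counts followed those of Syn3, which encodes synapsin III, a synaptic vesicle protein. In DREADD Pilo, Timp3 had 1276, 6751 and 5883 counts where Syn3 had 831, 3204 and 4520. In CAG-GFP Pilo, Timp3 had 786, 313, 854 and 2448 counts where Syn3 had 346, 218, 676 and 2448. In DREADD Sham, Timp3 had 2077, 1728, 4625 and 1976 counts where Syn3 had 1563, 593, 3767 and 2023. The control sits closer to equality than most of these. In CAG-GFP Sham, Timp3 had 3606, 3500 and 3376 counts where Syn3 had 3222, 3127 and 3193. Syn3 thus stood at 34.3% to 102% of Timp3, and in CAG-GFP Pilo 4 the counts were equal. Over the 14 libraries Pearson's r between log2 CPM of Timp3 and Syn3 was 0.95, against 0.36 for Timp4 with Syn2 and 0.06 for Timp1 with Syn1. These points share libraries and depth, and r is given as a description. The strand setting of the counting is not given in the sources used here, so reads from Timp3 and from Syn3 over the common exon cannot be told apart. Every Timp3 value below is uncertain to that extent, and results for Timp3 are also given after Syn3 counts were subtracted.

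**Figure D1:**
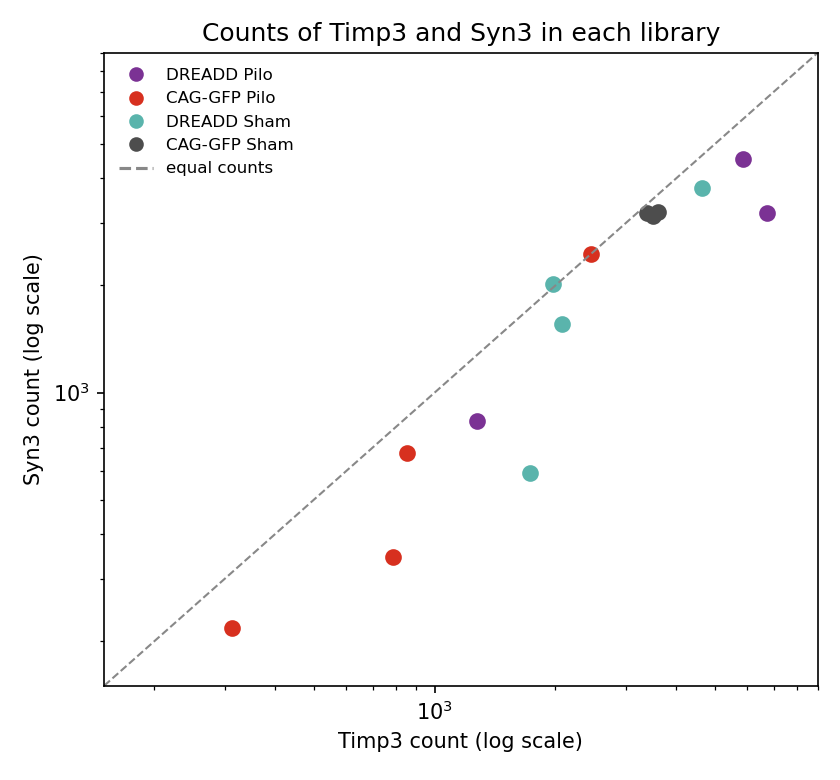
Raw counts of Timp3 (x axis, log scale) against Syn3 (y axis, log scale), one point per library, coloured by group, with the dashed line at equal counts. Points run along the line, with CAG-GFP Pilo 4 on it at 2448 counts of each gene.

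Libraries differed in more than their groups. Total counts ran from 10613291 to 38614639. The style of the library names splits the libraries into 2 sets: CAG-GFP Sham is all in set 1, DREADD Pilo is all in set 2, and CAG-GFP Pilo and DREADD Sham have 2 libraries in each. The labels do not say what the styles stand for. Markers of 8 mature granule cell genes summed to 93.1 to 750 CPM in DREADD Pilo, 1583 to 5430 CPM in CAG-GFP Pilo, 506 to 2093 CPM in DREADD Sham and 688 to 965 CPM in CAG-GFP Sham. DREADD Pilo 3 stood apart with the most mature granule cell and immature neuron markers at 0. These were Prox1, C1ql2 and Rbfox3 of mature granule cells and Dcx, Tubb3, Neurod1, Neurod2 and Calb2 of immature neurons. In the same library Dsp, also on the mature granule cell list, stood at 66.7 CPM, the highest of that list. Ttr, the transthyretin of choroid plexus, stood at 149867 CPM there. Other libraries also had markers of these lists at 0, among them C1ql2 in all 3 CAG-GFP Sham libraries and Prox1 and Dcx in CAG-GFP Pilo 4. CAG-GFP Pilo 4 had counts for 9372 genes, the fewest. Astrocyte markers, 9 in all, summed to 26088 to 27426 CPM in CAG-GFP Sham and to 732 to 6055 CPM in the other 11 libraries. Microglia markers, 8 in all, summed to 142 to 21127 CPM in DREADD Pilo and 3467 to 7908 CPM in CAG-GFP Pilo. They summed to 462 to 9394 CPM in DREADD Sham and 2350 to 2710 CPM in CAG-GFP Sham. In each group the highest microglia sum was above the highest mature granule cell sum. In these bulk samples, fewer cells of a type and less RNA per cell cannot be told apart.

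Timp3 was high in 2 of the 3 libraries of silenced cells after seizures and low in the CAG-GFP Pilo libraries. Levels are given as CPM, counts divided by the library total times its TMM factor. Timp3 had 63.4, 405 and 655 CPM in DREADD Pilo, then 73.9, 28.8, 21.05 and 45.7 CPM in CAG-GFP Pilo. It had 51.0, 56.0, 270 and 85.9 CPM in DREADD Sham, against 179, 173 and 177 CPM in CAG-GFP Sham. The 3 controls lay close together, all CAG-GFP Pilo libraries lay below them, and DREADD Pilo had its 2 highest libraries above every other library in the study and 1 below the controls. Timp3 averaged 375 ± 297 CPM (SD, n = 3) in DREADD Pilo, 42.4 ± 23.4 CPM (SD, n = 4) in CAG-GFP Pilo, 116 ± 104 CPM (SD, n = 4) in DREADD Sham and 176 ± 3.31 CPM (SD, n = 3) in CAG-GFP Sham. From the highest mean to the lowest the order was DREADD Pilo, CAG-GFP Sham, DREADD Sham and CAG-GFP Pilo, and the libraries of each neighbouring pair overlapped.

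**Figure D2:**
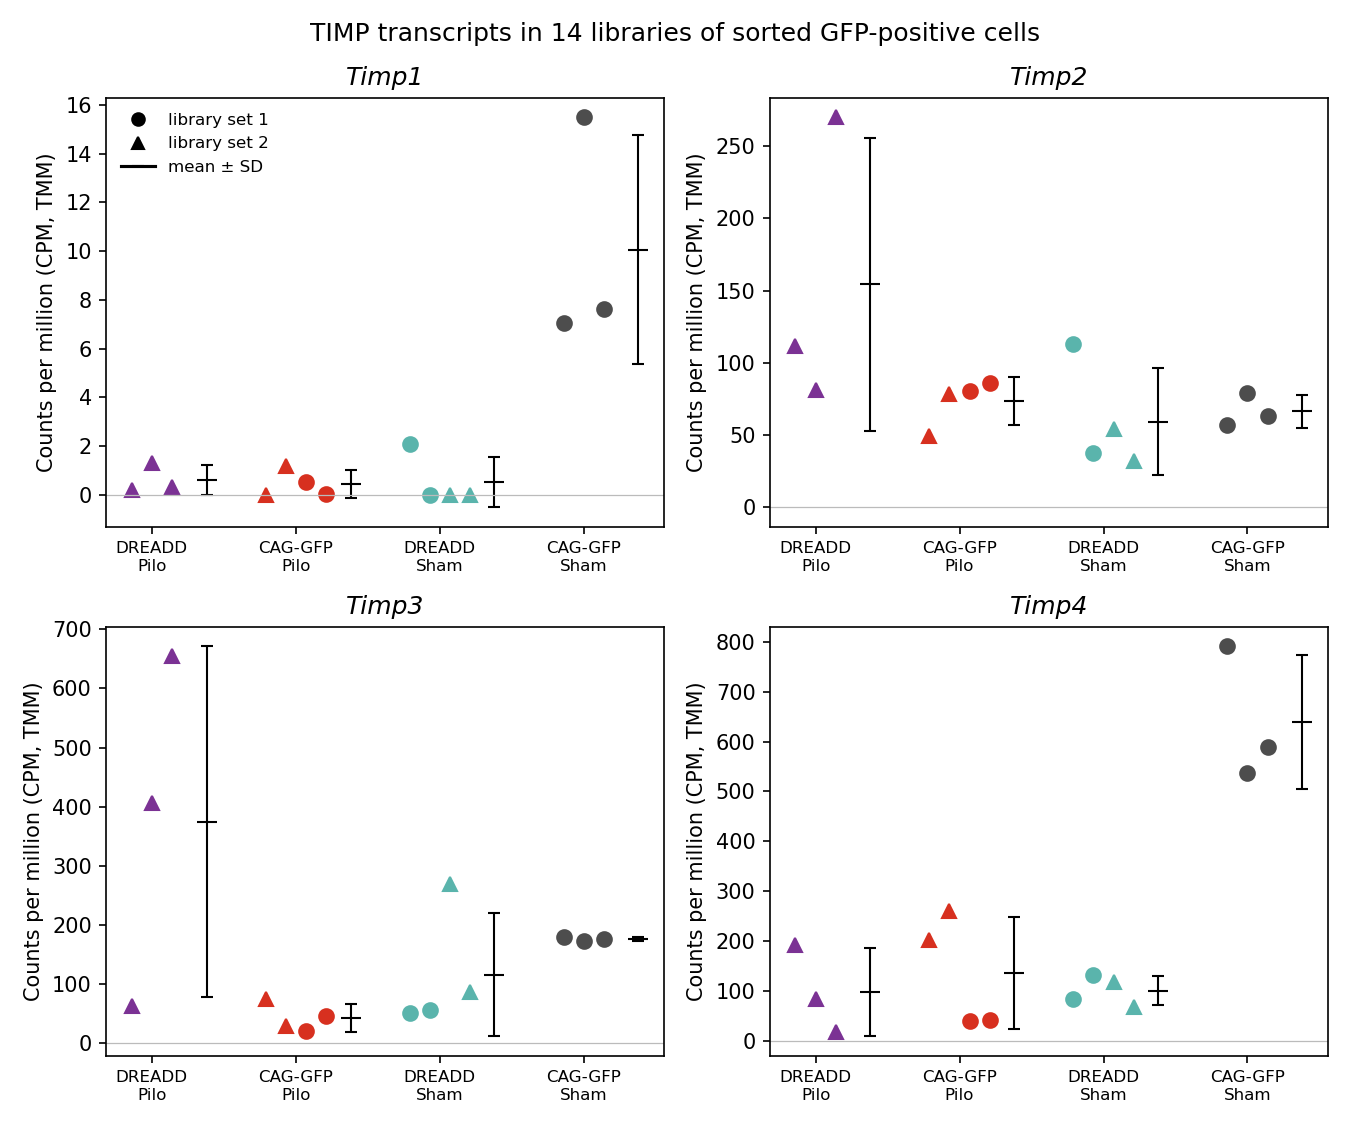
Level of each TIMP gene (y axis, CPM) in every library by group, with the mean ± SD beside the points (n = 3 or 4) and the symbol showing the library set. Timp4 and Timp1 stand above all other libraries in CAG-GFP Sham, while Timp3 reaches 405 and 655 CPM in 2 DREADD Pilo libraries and 63.4 CPM in the other.

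Timp3 did not pass the edgeR test in any comparison. Its largest difference between groups was a higher value in DREADD Pilo than in CAG-GFP Pilo, and the next was a lower value in CAG-GFP Pilo than in the controls. The edgeR quasi-likelihood test was fitted once to all libraries and genes, p adjusted by Benjamini-Hochberg and a threshold of 0.05. In DREADD Pilo against CAG-GFP Pilo the log2 fold change of Timp3 was 3.14 ± 0.79 (SE; adjusted p = 0.882, unadjusted p = 0.00127), place 7 of 18676 genes by p, and the groups overlapped through DREADD Pilo 1. In CAG-GFP Pilo against CAG-GFP Sham Timp3 was at -2.06 ± 0.77 (adjusted p = 0.285), with no overlap between the libraries. In DREADD Pilo against DREADD Sham it was 1.70 ± 0.76 (adjusted p = 0.954), and the groups overlapped. For DREADD Sham set against CAG-GFP Sham it was -0.61 ± 0.76 (adjusted p = 0.758), with DREADD Sham 3 above all controls. DREADD Pilo against CAG-GFP Sham gave 1.09 ± 0.82 (adjusted p = 0.522). The interaction, the seizure effect in DREADD cells minus that in CAG-GFP cells, was 3.75 ± 1.08 (adjusted p = 0.323). DESeq2 gave 3.26 (adjusted p = 0.02) for DREADD Pilo against CAG-GFP Pilo and 3.69 (adjusted p = 0.032) for the interaction, so the call for these rests on the tool.

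Within the library sets, the Timp3 differences that could be fitted kept their direction. Within set 2, DREADD Pilo against CAG-GFP Pilo gave 2.89 ± 1.12 (edgeR adjusted p = 0.77), and DREADD Pilo against DREADD Sham gave 1.08 ± 1.03 (edgeR adjusted p = 0.866). Within set 1, with 2 libraries against 3, CAG-GFP Pilo against CAG-GFP Sham gave -2.40 ± 0.50 (edgeR adjusted p = 0.0477). There the DREADD Sham contrast with the same controls gave -1.74 ± 0.48 (edgeR adjusted p = 0.131). How many of all genes passed in these set 1 fits is not given here, so the call cannot be read as particular to Timp3. No within-set value exists for DREADD Pilo against CAG-GFP Sham or for the interaction, since no set holds both of those groups. Between DREADD Pilo and CAG-GFP Sham, set and group cannot be told apart within the pair, and with set as a covariate over all groups that Timp3 difference was -0.089 ± 0.95. Without DREADD Pilo 3, the library that stands apart, DREADD Pilo against CAG-GFP Pilo was 2.46 ± 0.80 (edgeR adjusted p = 0.945). Without that library Timp3 was at 0.998 ± 0.80 in DREADD Pilo against DREADD Sham, at 0.35 ± 0.86 in DREADD Pilo against CAG-GFP Sham, and at 3.10 ± 1.08 in the interaction. Without DREADD Sham 3, DREADD Pilo against DREADD Sham gave 2.54 ± 0.76, and DREADD Sham against the controls gave -1.45 ± 0.73.

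After Syn3 counts were subtracted, Timp3 no longer separated CAG-GFP Pilo from the controls. This subtraction was chosen after the data were seen, and it takes away all Syn3 counts, also those from Syn3 exons outside Timp3. Where reads over the common exon were counted for both genes, it also removes reads of Timp3 itself. In CAG-GFP Sham, Syn3 stood at 89.3% to 94.6% of Timp3, so most counts there were removed. Whether the lower values below reflect lost Timp3 reads was not tested. What was left of Timp3 was 22.1, 213 and 152 CPM in DREADD Pilo and 41.3, 8.74, 4.39 and 0 CPM in CAG-GFP Pilo. It was 12.6, 36.8, 50.0 and 0 CPM in DREADD Sham and 19.1, 18.4 and 9.58 CPM in CAG-GFP Sham. The 0 of DREADD Sham 4 stands for a difference of -47 counts, set to 0. The control no longer stood above the CAG-GFP Pilo libraries, while DREADD Pilo 2 and 3 still stood above all others. The log2 fold changes became 3.25 ± 1.78 for DREADD Pilo against CAG-GFP Pilo and -0.21 ± 1.70 for CAG-GFP Pilo against CAG-GFP Sham. The difference of DREADD Sham from CAG-GFP Sham turned to 0.66 ± 1.73. DREADD Pilo gave 2.38 ± 1.73 against DREADD Sham and 3.04 ± 1.97 against CAG-GFP Sham, and the interaction became 2.58 ± 2.40. Syn3 itself had log2 fold changes of 3.09 in DREADD Pilo against CAG-GFP Pilo and -2.48 in CAG-GFP Pilo against CAG-GFP Sham, close to those of Timp3.

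Timp4, like Timp1 below, was higher in every control than in any other library. It had 191, 84.5 and 16.5 CPM in DREADD Pilo, then 201, 260, 39.3 and 41.7 CPM in CAG-GFP Pilo. It had 83.7, 131, 118 and 67.8 CPM in DREADD Sham, against 791, 538 and 588 CPM in CAG-GFP Sham. All 3 controls lay above every library of the other groups, and those 3 groups overlapped each other. Timp4 averaged 97.3 ± 87.9 CPM (SD, n = 3) in DREADD Pilo, 136 ± 112 CPM (SD, n = 4) in CAG-GFP Pilo, 100.2 ± 29.5 CPM (SD, n = 4) in DREADD Sham and 639 ± 134 CPM (SD, n = 3) in CAG-GFP Sham.

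No Timp4 difference passed the edgeR test over all genes. Against CAG-GFP Sham, its log2 fold change was -2.24 ± 0.79 for CAG-GFP Pilo (adjusted p = 0.285), -2.67 ± 0.80 for DREADD Sham (adjusted p = 0.169) and -2.72 ± 0.89 for DREADD Pilo (adjusted p = 0.205). These 3 comparisons share their controls. Within set 1, with 2 libraries against 3, the first was -4.00 ± 0.38 (edgeR adjusted p = 0.00207) and the second -2.59 ± 0.35 (edgeR adjusted p = 0.0087). The share of all genes that passed in the set 1 fits is not given here, so these calls cannot be read as particular to Timp4. Limma voom gave -3.33 (adjusted p = 0.000865), -2.72 (adjusted p = 0.00383) and -2.89 (adjusted p = 0.0327) for the 3. It called 4.16%, 4.59% and 5.38% of all genes in the same order. Between groups other than the control, Timp4 gave -0.48 ± 0.79 in DREADD Pilo against CAG-GFP Pilo and -0.041 ± 0.78 in DREADD Pilo against DREADD Sham (edgeR adjusted p = 0.996 and 1). The interaction was 2.20 ± 1.1 (edgeR adjusted p = 0.439).

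Astrocyte markers moved with Timp4. Over the 14 libraries Pearson's r between log2 CPM of Timp4 and of the summed markers was 0.89 and Spearman's rank correlation 0.89, a description of points that share libraries and in which the 3 controls form a group of their own. Per 1000 CPM of astrocyte markers, Timp4 stood at 122, 25.0 and 12.8 CPM in DREADD Pilo, and at 33.3, 54.8, 53.6 and 49.4 CPM in CAG-GFP Pilo. It stood at 45.8, 48.5, 26.6 and 27.3 CPM in DREADD Sham, against 30.1, 20.6 and 21.5 CPM in CAG-GFP Sham. On that ratio the controls were no longer above the other groups. In CAG-GFP Sham 1, the library with most Timp4, the highest astrocyte marker was Aldoc at 8190 CPM. No astrocyte marker was at 0 in CAG-GFP Sham. The part of astrocyte RNA in the Timp4 result was not tested.

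For Timp3, the summed mature granule cell markers ran the other way, with r of -0.90 and a rank correlation of -0.91 over the 14 libraries. Snap25 was the highest of that list in every library but DREADD Pilo 3, with 3629 of 5430 CPM in CAG-GFP Pilo 3. The sum thus follows Snap25 more than any other marker on the list. This r was the farthest from 0 of all marker lists, and the others ran from -0.60 (immature neurons) to 0.41 (pericytes and smooth muscle). DREADD Pilo 2, where Timp3 stood at 405 CPM, and DREADD Sham 3, where it stood at 270 CPM, held 40771 and 39508 CPM of oligodendrocyte markers. CAG-GFP Pilo 1 and 2, where Timp3 stood at 73.9 and 28.8 CPM, held 34399 and 36479 CPM of them. DREADD Pilo 2 and DREADD Sham 3 held 777 and 1098 CPM of pericyte and smooth muscle markers, with Rgs5 the highest of that list in both, while DREADD Sham 4, with 85.9 CPM of Timp3, held 1450 CPM of them. DREADD Pilo 3, the highest for Timp3 and Timp2, held 155867 CPM of ependyma and choroid plexus markers, of which Ttr made up most, but 371 CPM of oligodendrocyte markers. Endothelial markers stood at 1047, 363 and 651 CPM in DREADD Pilo 2, DREADD Pilo 3 and DREADD Sham 3, at 499 CPM in DREADD Sham 4, and at 2.48 to 6.33 CPM in CAG-GFP Sham, where Timp3 stood at 173 to 179 CPM. The part of these cells in the Timp3 values was not tested.

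**Figure D3:**
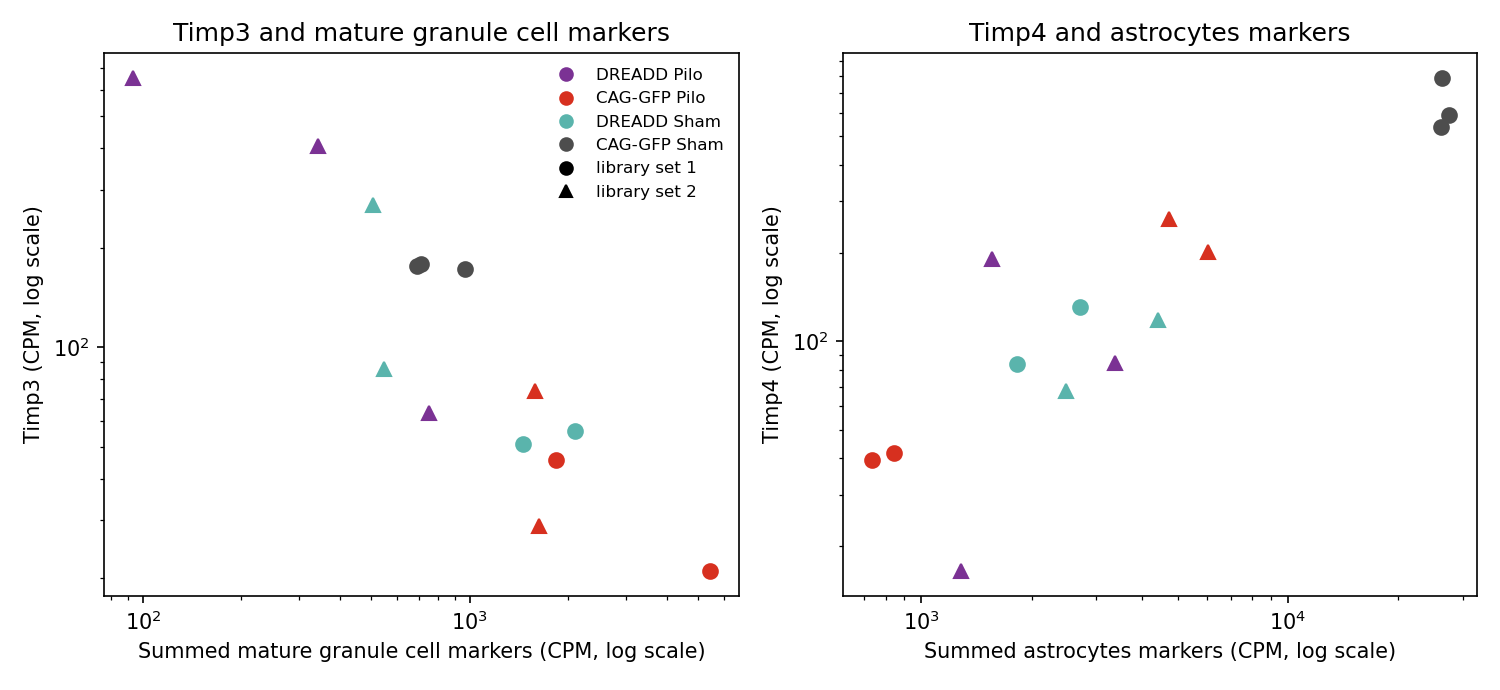
Left, Timp3 level against summed mature granule cell markers, and right, Timp4 level against summed astrocyte markers (all axes in CPM, log scale), one point per library, coloured by group with the symbol showing the library set. Timp3 is highest where granule cell markers are lowest (93.1 CPM in DREADD Pilo 3), and the 3 CAG-GFP Sham libraries stand alone at the upper right for Timp4.

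Timp1 was detected mainly in the control. It had 0.199, 1.32 and 0.334 CPM in DREADD Pilo (4, 22 and 3 counts), and 0, 1.20, 0.542 and 0.0373 CPM in CAG-GFP Pilo (0, 13, 22 and 2 counts). It had 2.06 CPM in DREADD Sham 1 (84 counts) and 0 in the other 3 DREADD Sham libraries, against 7.05, 15.5 and 7.64 CPM in CAG-GFP Sham (142, 314 and 146 counts). The controls were above all other libraries, and 4 of the 14 libraries had no count. A count of 0 allows up to 0.282 CPM in CAG-GFP Pilo 1 and up to 0.0972, 0.175 and 0.130 CPM in DREADD Sham 2, 3 and 4, taken as 3 counts and covering counting error only.

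By pooled counts Timp1 was 16.0-fold lower in DREADD Pilo, 31.6-fold lower in CAG-GFP Pilo and 13.5-fold lower in DREADD Sham than in CAG-GFP Sham. These ratios depend on single libraries. With 1 library left out, the ratio ran from 10.4 to 42.1 for DREADD Pilo, the highest without DREADD Pilo 2, which held 22 of 29 counts. It ran from 17.9 without CAG-GFP Pilo 4 to 50.6 without CAG-GFP Pilo 3 for that group. Leaving out DREADD Sham 1, Timp1 was at least 239-fold lower in the other DREADD Sham libraries than in CAG-GFP Sham, with 3 counts over the group as the floor. Fitted log2 fold changes were -4.01 ± 2.77, -4.49 ± 2.51 and -4.26 ± 2.48 in the same order (edgeR adjusted p = 0.465, 0.381 and 0.366). The other 2 comparisons and the interaction gave 0.48 ± 2.28, 0.25 ± 2.28 and 4.75 ± 3.30, and the first 2 are smaller than their SEs. At these counts a difference between groups other than the control was not detectable. Within set 1, CAG-GFP Pilo against CAG-GFP Sham gave -5.18 ± 3.03 and the DREADD Sham contrast with those controls gave -3.31 ± 2.74. Per 1000 CPM of astrocyte markers, Timp1 stood at 0.127 to 0.390 CPM in DREADD Pilo, 0 to 0.740 CPM in CAG-GFP Pilo, 0 to 1.13 CPM in DREADD Sham and 0.269 to 0.593 CPM in CAG-GFP Sham, and these ranges overlap.

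Of the 3 members with counts in every library, Timp2 varied least. It had 111, 81.4 and 270 CPM in DREADD Pilo, then 49.3, 78.5, 80.4 and 86.4 CPM in CAG-GFP Pilo. It had 113, 37.2, 54.3 and 32.3 CPM in DREADD Sham, against 57.2, 78.8 and 63.2 CPM in CAG-GFP Sham. DREADD Pilo 3 was far above the rest, and all DREADD Pilo libraries lay above the 3 controls, DREADD Pilo 2 only narrowly. Over the 14 libraries the highest level was 8.36 times the lowest for Timp2, 31.1 times for Timp3 and 48.0 times for Timp4.

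The Timp2 log2 fold changes were 1.07 ± 0.58 in DREADD Pilo against CAG-GFP Pilo, 1.38 ± 0.58 in DREADD Pilo against DREADD Sham and 1.22 ± 0.63 in DREADD Pilo against CAG-GFP Sham (edgeR adjusted p = 0.882, 0.954 and 0.299). Without DREADD Pilo 3 they were 0.37, 0.67 and 0.48, so that library sets most of their size. CAG-GFP Pilo against CAG-GFP Sham gave 0.15 ± 0.58, and DREADD Sham set against the same controls gave -0.16 ± 0.58 (edgeR adjusted p = 0.940 and 0.939). The interaction was 1.23 ± 0.82 (edgeR adjusted p = 0.545). Within set 2 the values were 1.29 ± 0.69 for DREADD Pilo against CAG-GFP Pilo and 1.84 ± 0.71 for DREADD Pilo against DREADD Sham, and within set 1 they were 0.30 ± 0.55 and 0.16 ± 0.55 for CAG-GFP Pilo and DREADD Sham against CAG-GFP Sham.

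**Figure D4:**
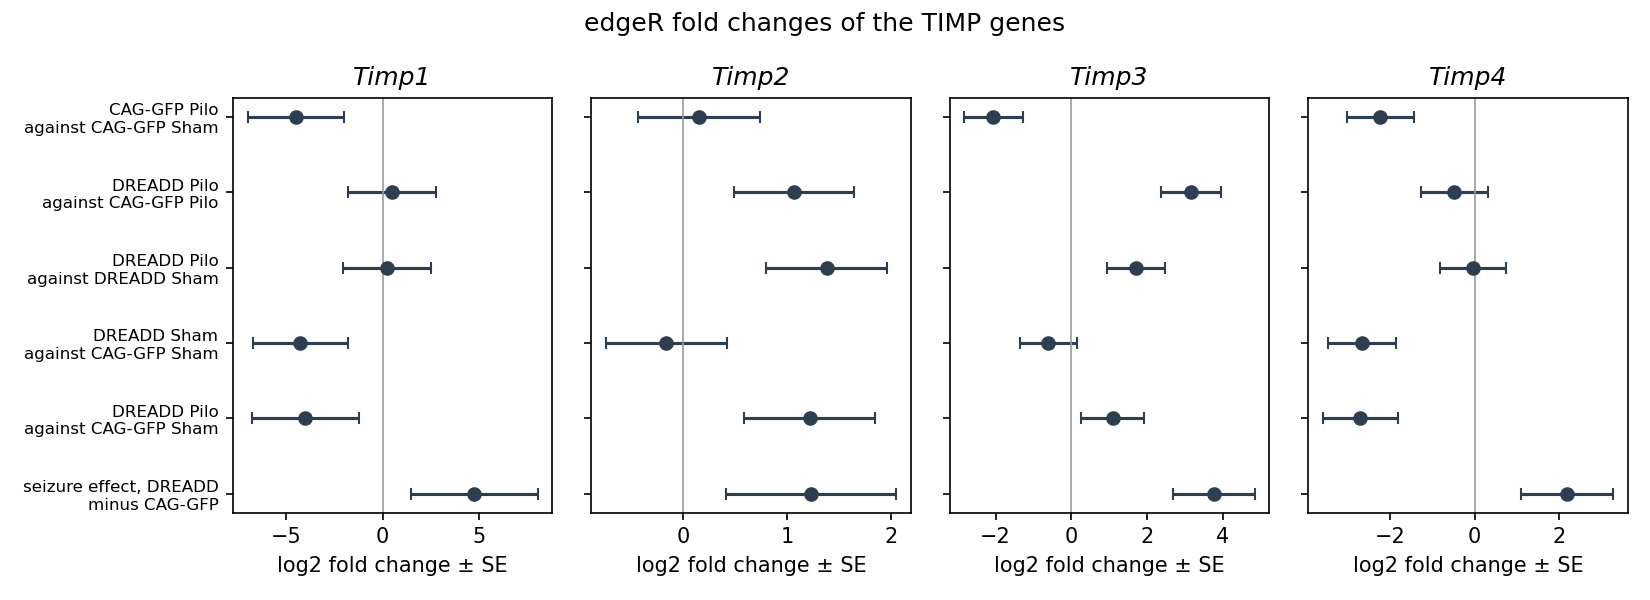
Log2 fold change ± SE of each TIMP gene (x axis) in the 6 comparisons (rows), from the edgeR fit of 14 libraries. Timp3 lies farthest from 0 in the interaction (3.75 ± 1.08) and in DREADD Pilo against CAG-GFP Pilo (3.14 ± 0.79), and Timp1 has the widest errors.

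In no comparison did any of the 4 TIMP genes pass the edgeR test. Of all genes, 0.241% passed in CAG-GFP Pilo against CAG-GFP Sham (0.171% lower), 0% in DREADD Pilo against CAG-GFP Pilo, 0% in DREADD Pilo against DREADD Sham, 0.3% in DREADD Sham against CAG-GFP Sham, 0.225% in DREADD Pilo against CAG-GFP Sham and 0% in the interaction. At an unadjusted p under 0.05 the members numbered 2 of 4 (15.4% of all genes), 1 (5.36%), 2 (5.18%), 1 (18.6%), 1 (19.2%) and 1 (11.7%) in the same order. DESeq2 gave no adjusted p for Timp1, and of the other 3 members it called 0 (12.9%), 1 (0.961%), 0 (0.888%), 1 (15.2%), 1 (15.6%) and 1 (8.33%). Limma voom called 1 (4.16%), 0 (0%), 0 (0%), 2 (4.59%), 1 (5.38%) and 0 (0.198%).

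Without overlap between libraries, 3 members (Timp1, Timp3 and Timp4) were lower in CAG-GFP Pilo relative to CAG-GFP Sham, where 12.2% of all genes were lower and 6.55% higher in that way. In DREADD Sham against CAG-GFP Sham, 2 members (Timp1 and Timp4) were lower without overlap, beside 12.7% of all genes lower and 9.01% higher. In DREADD Pilo against CAG-GFP Sham the same 2 were lower, beside 14.9%, and Timp2 was higher, beside 19.8%. No member was free of overlap in DREADD Pilo against CAG-GFP Pilo, where 5.69% of all genes were higher and 3.15% lower, or in DREADD Pilo against DREADD Sham, where 4.39% were higher and 2.23% lower. The median log2 fold change of the 4 members was -2.15 in CAG-GFP Pilo against CAG-GFP Sham, beside 0.41 for all genes. It was -1.64 in DREADD Sham against CAG-GFP Sham, beside 0.53, and 2.97 in the interaction, beside -0.43. For DREADD Pilo it was 0.77 against CAG-GFP Pilo, beside 0.28, 0.82 against DREADD Sham, beside 0.067, and -0.81 against CAG-GFP Sham, beside 0.66.

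The make-up of the family is given as shares of the summed TIMP level per kilobase of exon, a description without a test. Timp3 made up 40.5% of the summed TIMP level on average in DREADD Pilo, Timp2 37.0%, Timp4 21.8% and Timp1 0.763%. In CAG-GFP Pilo Timp2 made up 45.7%, Timp4 41.8%, Timp3 11.5% and Timp1 1.02%. In DREADD Sham Timp4 made up 38.2%, Timp2 32.2%, Timp3 28.5% and Timp1 1.12%. In CAG-GFP Sham Timp4 made up 68.0%, Timp3 13.7%, Timp2 10.9% and Timp1 7.31%. Libraries of a group differed widely: the Timp3 share ran from 11.3% to 57.6% in DREADD Pilo, 5.11% to 16.2% in CAG-GFP Pilo, 12.1% to 49.4% in DREADD Sham and 12.3% to 14.8% in CAG-GFP Sham. The Timp4 share ran from 1.83% to 46.9% in DREADD Pilo, 20.3% to 63.8% in CAG-GFP Pilo, 27.4% to 57.5% in DREADD Sham and 60.8% to 75.1% in CAG-GFP Sham. The Timp3 ranges overlap, and in DREADD Pilo 1 Timp4 held the largest share and Timp3 11.3%.

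Timp4 led in all 3 CAG-GFP Sham libraries. Timp3 led in 2 DREADD Pilo libraries and Timp4 in 1, Timp2 and Timp4 led in 2 each of CAG-GFP Pilo, and in DREADD Sham Timp4 led in 2, Timp2 in 1 and Timp3 in 1. Timp1 was lowest in all 14. With the length of the main transcript in place of all exons, the leading member stayed the same in 13 of 14 libraries, and ranks changed in 4. For Timp3 that length is 4722 bases in place of 8144, and its share was higher in every library. It rose from 57.6% to 68.9% in DREADD Pilo 2 and from 34.8% to 46.4% in DREADD Sham 4, where Timp3 then led. The Timp3 shares above thus depend on the length used.

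**Figure D5:**
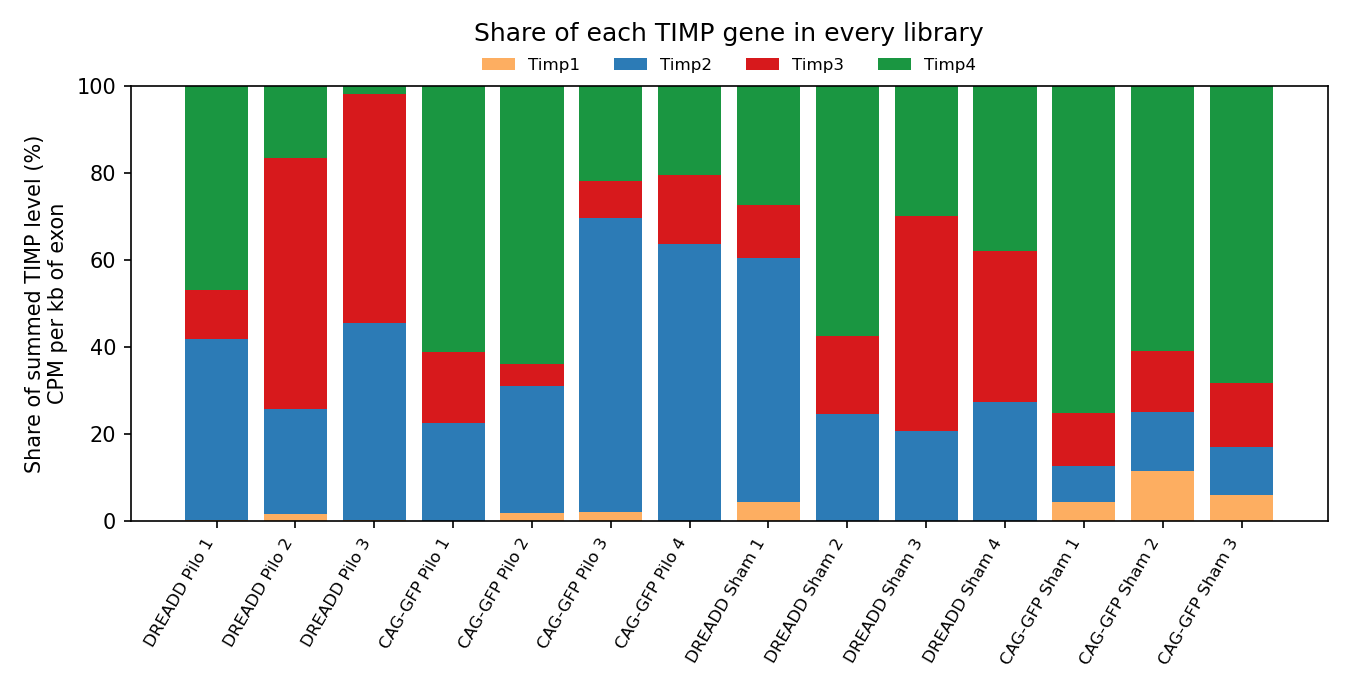
Share of each TIMP gene in the summed TIMP level of every library (y axis, percent, from CPM per kb of exon), libraries in group order along the x axis. Timp4 holds most in the 3 CAG-GFP Sham libraries, and Timp3 holds most in DREADD Pilo 2 and 3 and in DREADD Sham 3.

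The members did not move as 1 group. The highest Pearson's r between log2 CPM of 2 members over the 14 libraries was 0.57, for Timp1 and Timp4. Timp3 and Timp4 gave 0.0053, and Timp2 and Timp4 gave -0.42.

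The genes most like each member, by Pearson's r of log2 CPM over the 14 libraries among 9585 genes with a mean of at least 10 CPM, are named by rule and described without a test. For Timp3, Syn3 came first (0.95), with which it shares 1733 exon bases whose reads cannot be told apart. Then came Rad21 (0.88), a cohesin subunit, Arhgef12 (0.86), a guanine nucleotide exchange factor, and Trps1 (0.86), a zinc finger repressor. For Timp4 they were S100b (0.92), a calcium-binding protein that is also in the astrocyte list, Cmtm5 (0.92), Cspg5 (0.92), a neural proteoglycan, Asrgl1 (0.91) and Il18 (0.90), a cytokine. For Timp1 they were Sec11a (0.88), a signal peptidase subunit, Spag5 (0.87), a spindle protein, Agpat3 (0.86), an acyltransferase, Ankrd42 (0.84) and Hsd17b10 (0.83), a mitochondrial dehydrogenase. For Timp2 they were Bod1l (0.83), Ehbp1 (0.81), Rec114 (0.78), Nedd4 (0.76), a ubiquitin ligase, and Wapl (0.74), which releases cohesin.

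Of the proteases that TIMPs inhibit, 21 of 30 listed passed the filter, and 1 changed. Mmp2, the gelatinase A whose proform TIMP2 binds, had 31.2, 13.3 and 25.5 CPM in DREADD Pilo and 41.3, 12.8, 0.912 and 60.01 CPM in CAG-GFP Pilo. It had 10.7, 4.02, 21.3 and 30.3 CPM in DREADD Sham and 0 in all 3 CAG-GFP Sham libraries. It rose in each group against CAG-GFP Sham by edgeR, with an adjusted p of 0.0414 in DREADD Pilo, 0.0358 in CAG-GFP Pilo and 0.0451 in DREADD Sham, beside 0.0643%, 0.0696% and 0.0535% of all genes called higher. The fitted folds against a group at 0 are no bound and are not given. Oligodendrocyte precursor markers, 7 in all, summed to 47.8 to 1707 CPM in DREADD Pilo, 138 to 1111 CPM in CAG-GFP Pilo and 426 to 989 CPM in DREADD Sham, against 25.0 to 45.3 CPM in CAG-GFP Sham. Oligodendrocyte markers, 8 in all, summed to 371 to 40771 CPM in DREADD Pilo, 1268 to 36479 CPM in CAG-GFP Pilo and 18311 to 39508 CPM in DREADD Sham, against 545 to 647 CPM in CAG-GFP Sham. Their part in the Mmp2 result was not tested. The calls rest on the number of libraries: on leaving out 1 library at a time, Mmp2 stayed called in 1 of 6, 1 of 7 and 0 of 7 fits, with the adjusted p up to 0.19, 0.179 and 0.19.

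The protease list had a median log2 fold change of 0.99 in DREADD Pilo against CAG-GFP Pilo, with 15 of 21 positive, beside a median of 0.28 and 58.4% positive for all genes. It was 0.16 in DREADD Pilo against DREADD Sham with 13 of 21 positive, beside 0.067 and 52.3%. Against CAG-GFP Sham it was 1.16 in DREADD Pilo with 17 of 21 positive, beside 0.66 and 63.5%. The same contrast gave 0.14 in CAG-GFP Pilo with 12 of 21 positive, beside 0.41 and 58.6%, and 1.02 in DREADD Sham with 17 of 21 positive, beside 0.53 and 61.1%. In the interaction it was 0.32 with 11 of 21 positive, beside -0.43 and 42.8%. The other metalloproteinase inhibitors, of which 2 of 3 listed passed the filter, and the TIMP receptors and binding partners, of which 6 of 7 did, held no gene that passed in any comparison.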

How the data were processed

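The authors deposited raw counts per gene, whole numbers without normalisation, for 14 libraries and 43346 genes. The submitters' processing notes list edgeR, R 4.1.1, Subread, featureCounts and Bowtie2, with hg38 as the build, although the identifiers are mouse. The aligner's settings, strand setting, annotation and the rule for reads that match several genes were not given in the sources used here. Identifiers were matched without version to GENCODE M21 on GRCm38, which gave 42462 symbols (98%).

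Tests on counts used edgeR 4.0.16 under R 4.3.3 (TMM factors, filterByExpr by group, 1 quasi-likelihood fit of 14 libraries in 4 groups, Benjamini-Hochberg adjustment, threshold 0.05). SE is the log2 fold change over the root of F. The biological coefficient of variation was 1.47. CPM uses library totals times TMM factors, and correlations use log2 CPM with a prior count of 2. Totals ran from 10613291 to 38614639 counts. Floors of 3 counts cover counting error alone: without molecular identifiers, reads are not independent molecules. All 18 pairs of libraries within groups differed in at least 16116 genes, so no column was a copy of another in its group. Such a count cannot show whether libraries were made from the same cells.

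Alternatives were DESeq2 1.42.0, limma voom 3.58.1, RLE factors, totals only, no filter, fits of only the groups compared, a replicate block, library set as a covariate or alone, each library left out, and Timp3 less Syn3. The members, lists and named genes were chosen with earlier results of these data known. Named genes were the TIMPs, their synapsin neighbours, the 5 genes most like each by r (1 of them is not reported here), list members that passed, and the top marker of the libraries highest for a TIMP gene.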

Additional observations from a re-analysis of the deposited data

Results flagged for a closer look

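Timp1 in DREADD Sham 1 stood at 2.06 CPM, where the other 3 libraries of the group had 0. Timp3 in DREADD Sham 3 stood at 270 CPM, where the next library of the group had 85.9 CPM. Each is a single library far from the rest of its group by Dixon's criterion for 4 values. In all 8 sets of 4 values were examined, and chance marks about 1 in 20. That rate does not hold for Timp1 in DREADD Sham: with the other 3 libraries at 0, any count in DREADD Sham 1 would be flagged. DREADD Sham 3 held 651 CPM of endothelial markers, against 12.02 to 499 CPM in the other libraries of its group. It was also highest of its group for markers of oligodendrocytes (39508 CPM), their precursors (989 CPM), astrocytes (4431 CPM) and immature neurons (1982 CPM). For the remaining lists it was not, with 1098 CPM of pericyte and smooth muscle markers against 1450 CPM in DREADD Sham 4. The part of any of these cells in the Timp3 value was not tested. Without DREADD Sham 3, Timp3 in DREADD Sham against CAG-GFP Sham was -1.45 on the log2 scale.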

How the results depend on the processing

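For the 24 fold changes of the TIMP genes, 17 kept their direction under every alternative run and 7 turned under at least 1. With DESeq2, 4 passed the threshold: Timp3 in DREADD Pilo against CAG-GFP Pilo (3.26) and in the interaction (3.69), and Timp4 in DREADD Sham (-2.58) and DREADD Pilo (-2.61) against CAG-GFP Sham. With limma voom, Timp4 passed against CAG-GFP Sham in DREADD Pilo (-2.89), CAG-GFP Pilo (-3.33) and DREADD Sham (-2.72), Timp1 passed in DREADD Sham against CAG-GFP Sham (-7.26), and Timp4 turned to 0.44 in DREADD Pilo against CAG-GFP Pilo. Fitted on those groups only, Timp4 passed in DREADD Sham against CAG-GFP Sham (-2.68). Within set 1, with 2 libraries against 3, Timp3 (-2.40) and Timp4 (-4.00) passed in CAG-GFP Pilo against CAG-GFP Sham. Timp4 (-2.59) also passed in DREADD Sham against CAG-GFP Sham, where Timp2 turned to 0.16. The share of all genes that passed in these set 1 fits is not given here, so the calls cannot be read as particular to TIMP genes. Within set 2, Timp4 turned to 0.057 in DREADD Pilo against DREADD Sham. With set as a covariate, Timp2 turned to 0.081 in DREADD Sham and Timp3 to -0.089 in DREADD Pilo against CAG-GFP Sham. Totals alone, which shift the median of all genes by -0.95 to 0.77, turned Timp1 to -0.024 in DREADD Pilo against DREADD Sham, and Timp2 to 0.61 and Timp3 to 0.12 in DREADD Sham against CAG-GFP Sham, where Timp3 less Syn3 gave 0.66. With 1 library left out at a time, values ran from -0.72 to 1.59 for Timp1 and -1.42 to 0.042 for Timp4 in DREADD Pilo against CAG-GFP Pilo, from -0.996 to 6.81 for Timp1 and -1.01 to 0.43 for Timp4 in DREADD Pilo against DREADD Sham, and from -0.69 to 0.040 for Timp2 in DREADD Sham against CAG-GFP Sham. The cause of these changes was not tested.

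The replicate block turned Timp1 to -0.36 in DREADD Pilo against CAG-GFP Pilo and changed no other call of a TIMP gene. Of 19 pairs of libraries with the same number, 1 had a correlation of deviations above 0.1 and 5 were below -0.1. The range was -0.38 to 0.12. Pairs of CAG-GFP Pilo with DREADD Sham ran from -0.38 to -0.15, and each joins a set 1 and a set 2 library. The correlations therefore cannot show whether libraries with the same number were paired.

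Over all genes, calls against CAG-GFP Sham for CAG-GFP Pilo, for DREADD Sham and for DREADD Pilo numbered 45, 56 and 42 in the edgeR test. They numbered 2221, 2655 and 2723 with DESeq2, 777, 858 and 1005 with limma voom, 168, 647 and 2407 on the groups compared alone, 1, 0 and 9 with the block, 29, 13 and 30 on totals alone and 89, 146 and 40 with set as a covariate. Leaving out 1 library gave 3 to 15, 6 to 12 and 4 to 152. In the interaction 0 genes were called, with 1456 by DESeq2, 37 by voom, 11 with set as a covariate and 3 without the filter. DREADD Pilo against CAG-GFP Pilo and against DREADD Sham had 0, with 171 and 158 by DESeq2. Timp1 had no fit on the groups alone in DREADD Pilo against CAG-GFP Pilo or DREADD Sham, since its counts did not pass the filter there. With 3 or 4 libraries a group and Timp1 at 0 in 4 of 14, small differences were not detectable.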

Other observations

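Cd63, a tetraspanin that binds TIMP1, was highest in the same libraries as Timp1 and Timp4, a gene chosen after its values were seen. It stood at 8.59, 50.9 and 97.4 CPM in DREADD Pilo, at 20.96, 24.2, 279 and 425 CPM in CAG-GFP Pilo and at 552, 527, 5.65 and 3.43 CPM in DREADD Sham, against 2706, 2543 and 2883 CPM in CAG-GFP Sham. The log2 fold changes against CAG-GFP Sham were -5.70 ± 1.84 in DREADD Pilo, -3.86 ± 1.497 in CAG-GFP Pilo and -3.32 ± 1.47 in DREADD Sham (edgeR adjusted p = 0.202, 0.287 and 0.258), and within CAG-GFP Pilo and DREADD Sham the 2 libraries of set 1 lay above the 2 of set 2.

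Adamts1, an aggrecanase, was also chosen after its values were seen. It had 18.8, 134 and 167 CPM in DREADD Pilo and 20.6, 22.5, 129 and 22.8 CPM in DREADD Sham, and at most 40.4 CPM in CAG-GFP Pilo and 23.9 CPM in CAG-GFP Sham. The 3 libraries above 100 CPM, DREADD Pilo 2, DREADD Pilo 3 and DREADD Sham 3, are those with the highest Timp3. In DREADD Pilo against CAG-GFP Pilo its log2 fold change was 2.78 ± 1.09 (edgeR adjusted p = 0.882).

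Counts of overlapping genes on opposite strands were compared over the whole table. For 274 pairs in which every exon of a gene lies within exons of another gene on the opposite strand, the inner gene had counts in 1714 of 2815 library values with at least 10 counts of the outer gene. In 1685 of these the inner count did not exceed the outer count, and in 76 the counts were equal.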
